A study of Mus musculus with 2 samples.

Results

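The STAT genes encode transcription factors that wait in the cytoplasm until a cytokine binds its receptor. Kinases of the Janus family (JAKs), bound to the receptor chains, then phosphorylate a tyrosine near the end of the STAT protein, and the STAT proteins pair up, enter the nucleus and bind DNA. In T cells, STAT2 acts downstream of type I interferons, STAT3 of IL-6, IL-10 and IL-21, STAT4 of IL-12, STAT5A and STAT5B of IL-2, IL-7 and IL-15, and STAT6 of IL-4, so that STAT4 is best known for Th1 cells and STAT6 for Th2 cells. The 6 genes described here (Stat2, Stat3, Stat4, Stat5a, Stat5b and Stat6) were taken by symbol from the 24421 genes of the expression tables. The rule used symbols and no measured value, but it was set with earlier results of these data known. All 6 passed the filter on low values.

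RNA was sequenced from Th1 cells of WT (Chi3l1+/+) and Chi3l1 KO (Chi3l1-/-) mice, both on the C57BL/6J background. Chi3l1, chitinase-3-like-1, is a secreted protein that resembles chitinases but does not cut chitin. Naïve CD4 T cells of both genotypes were activated with plate-bound antibodies to CD3 and CD28 and skewed with IL-12, IL-2 and an antibody that blocks IL-4. The study measured phosphorylated STAT proteins to follow cytokine signalling, whereas the RNA values below are transcript levels and do not measure phosphorylation. Chi3l1 is deleted in all cells of the KO line, not in T cells alone. Each genotype is represented by 1 library (n = 1), the number of mice behind each library and the day of harvest were not given in the sources used here, and naïve cells were not analysed here. With 1 library per genotype no test between genotypes was possible. Every interval below covers counting error only and leaves out the spread between mice and cultures.

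The deposited value of a gene was read as log2 of a normalized read count plus 1. When the log was undone, low values fell on whole multiples of 1 step. This gave rebuilt totals of 70755279 reads in the WT library and 63089403 in the library labelled Chi3l1 KO. A read of several alignments may have been counted on more than 1 gene. The targeted gene went against its label. Chi3l1, listed as Chil1, had 1 read in the WT library and 103 reads in the library labelled Chi3l1 KO. Values per gene do not show which exons these reads come from. For this reason the second library is called by its label throughout, and every direction below is from the library labelled WT to the library labelled Chi3l1 KO. T cell genes were high in both libraries, with log2 values of 14.94 and 14.86 for Cd3e and of 14.32 and 13.94 for Cd4. Il17a, the defining Th17 cytokine, was listed at 0 in both.

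The members are shown first by the coding sequence around the tyrosine that JAKs phosphorylate, since it is the switch of the pathway and shows which members are near-copies. Each line gives 57 bases of the longest coding transcript (GENCODE M21, GRCm38), 5′ to 3′, and the capitals mark the codon of this tyrosine. The codon is number 689 in Stat2, 705 in Stat3, 693 in Stat4, 694 in Stat5a, 699 in Stat5b and 641 in Stat6, counted from the start codon.
Stat2: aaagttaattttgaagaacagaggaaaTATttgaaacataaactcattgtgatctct
Stat3: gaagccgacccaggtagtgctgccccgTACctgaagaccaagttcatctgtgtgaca
Stat4: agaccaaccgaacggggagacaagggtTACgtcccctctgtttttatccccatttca
Stat5a: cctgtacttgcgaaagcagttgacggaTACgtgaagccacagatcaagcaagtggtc
Stat5b: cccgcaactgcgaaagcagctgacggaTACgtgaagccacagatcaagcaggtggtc
Stat6: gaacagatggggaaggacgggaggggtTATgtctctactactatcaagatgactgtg
Stat5a and Stat5b had the same base at 51 of these 57 positions. The 14 other pairs had the same base at 13 to 25 of them.

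The likeness of Stat5a and Stat5b bears on their counts, because the authors counted unique and multiple alignments. The longest run of bases shared by both coding sequences was 324 bases, from coding base 571 to 894 in both genes. Its first 100 bases, about the length of 1 sequenced read, are shown to make this plain.
Stat5a and Stat5b, coding bases 571 to 670: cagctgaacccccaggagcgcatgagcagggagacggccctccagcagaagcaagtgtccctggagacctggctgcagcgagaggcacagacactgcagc
By its own sequence, a read from here cannot be told apart between Stat5a and Stat5b. Fragments were sequenced from both ends, and the read of the other end may lie outside the shared run. Of the windows of 100 bases in the longest coding transcript, 265 of 3789 (6.99%) in Stat5a also occurred without a mismatch in Stat5b, and 24.7% did with up to 2 mismatches. Of the Stat5b windows, 5.18% occurred without a mismatch in Stat5a and 18.3% with up to 2 mismatches. The remaining windows tell these genes apart. Reads from shared windows may have been counted on both genes, which leaves the Stat5a and Stat5b values uncertain. No other pair of the 6 genes shared such a window. In Stat4, 24.1% of the windows also occurred in transcripts of 1 other annotated gene, and no windows of Stat2, Stat3 or Stat6 occurred in another gene.

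The family also shares positions in the genome (GRCm38, GENCODE M21). Stat5b (chromosome 11, 100780731 to 100850724, minus strand), Stat5a (100859351 to 100885169, plus strand) and Stat3 (100885098 to 100939540, minus strand) lie side by side. Stat5a and Stat5b start 8.63 kb apart and point away from each other. Stat5a and Stat3 run toward each other, and their ends overlap by 72 bases. Stat6 (chromosome 10, 127642986 to 127660957, plus strand) and Stat2 (128270559 to 128292849, plus strand) are separated by about 610 kb, and Stat4 lies on chromosome 1 (51987148 to 52107189, plus strand). All 6 are protein-coding genes, with 19 to 24 exons in the longest coding transcript. The end of Stat6 overlaps Nab2, on the other strand, by 40 bases, and the counting was not stated to use strand. Stat4 overlaps the noncoding gene Gm28177 on the same strand over 29929 bases and the pseudogene Gm3940 on the other strand over 432 bases. Their part in the Stat4 count was not tested.

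Among the 6 STAT genes described here, Stat3 had the most abundant transcript and Stat2 and Stat4 the least abundant. Levels were compared between genes as rebuilt reads per kb of the longest annotated transcript, with exact Poisson 95% intervals. In the WT library, Stat3 had 16541 reads per kb (interval 16439 to 16644), which was 44.3% of the summed level of the 6 genes. Stat5b had 7032 reads per kb and Stat5a had 6081, so the STAT5 pair, which carries the IL-2 signal, came next. Stat6, the IL-4 factor, had 4625 reads per kb in this culture with IL-4 blocked.

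Stat4, through which IL-12 acts in Th1 cells, had 1655 reads per kb in the WT library (interval 1609 to 1701). Stat2, the partner of IRF9 in the interferon response, had 1421 (interval 1386 to 1457). The Stat3 level was 10.0 times that of Stat4 and 11.6 times that of Stat2. Even so, Stat2 ranked above 82.2% and Stat3 above 98.1% of the 14925 genes listed at a log2 of 1 or more in at least 1 library and an annotated length.

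In the library labelled Chi3l1 KO the order was the same but for the STAT5 pair. Stat3 had 15507 reads per kb, Stat5a 7033 (interval 6950 to 7116), Stat5b 6915 (interval 6844 to 6987), Stat6 3993, Stat4 1859 and Stat2 1682. The intervals of Stat5a and Stat5b overlapped in this library and were apart in the WT library, while all the other neighbours in the order were apart in both. The order rests on the length used. Per kb of the longest coding sequence, Stat2 exceeded Stat4 in both libraries and Stat5b exceeded Stat5a in both, and per kb of all annotated exons Stat6 exceeded Stat5a in the WT library. Stat3 and then Stat5b were highest in the WT library with each of the 3 lengths.

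**Figure D1:**
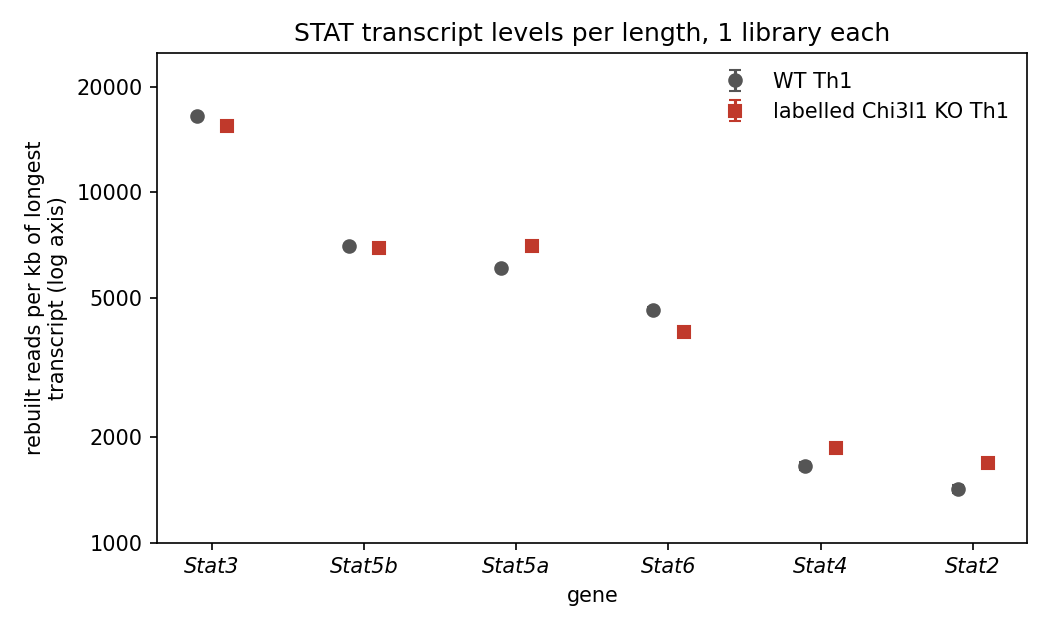
Rebuilt reads per kb of the longest annotated transcript (log axis) for the 6 STAT genes described. Circles are the WT library and squares the library labelled Chi3l1 KO, with exact Poisson 95% intervals that are mostly smaller than the symbols. Stat3 lies highest in both libraries, and Stat5b and Stat5a lie at 7032 and 6081 in WT and at 6915 and 7033 in the other library.

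None of the 6 genes differed by 1.5-fold or more between the libraries. Among the 15541 genes listed at a log2 of 1 or more in at least 1 library, 7.38% were at least 2-fold higher and 9.12% at least 2-fold lower in the library labelled Chi3l1 KO, and 13.4% and 16.2% were past 1.5-fold. Low genes make up most of these. Among the 8886 well expressed genes, those at a log2 of 8 or more in both libraries, which include all 6 STAT genes, 0.461% were at least 2-fold higher and 0.743% at least 2-fold lower, and 3.95% were at least 1.5-fold higher and 6.29% at least 1.5-fold lower. The median log2 difference was 0.07 for the STAT genes, 3 above and 3 below 0, and -0.01 for the 8886 genes. Summed over the 6 genes, normalized counts differed by -0.03 on the log2 scale.

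**Figure D2:**
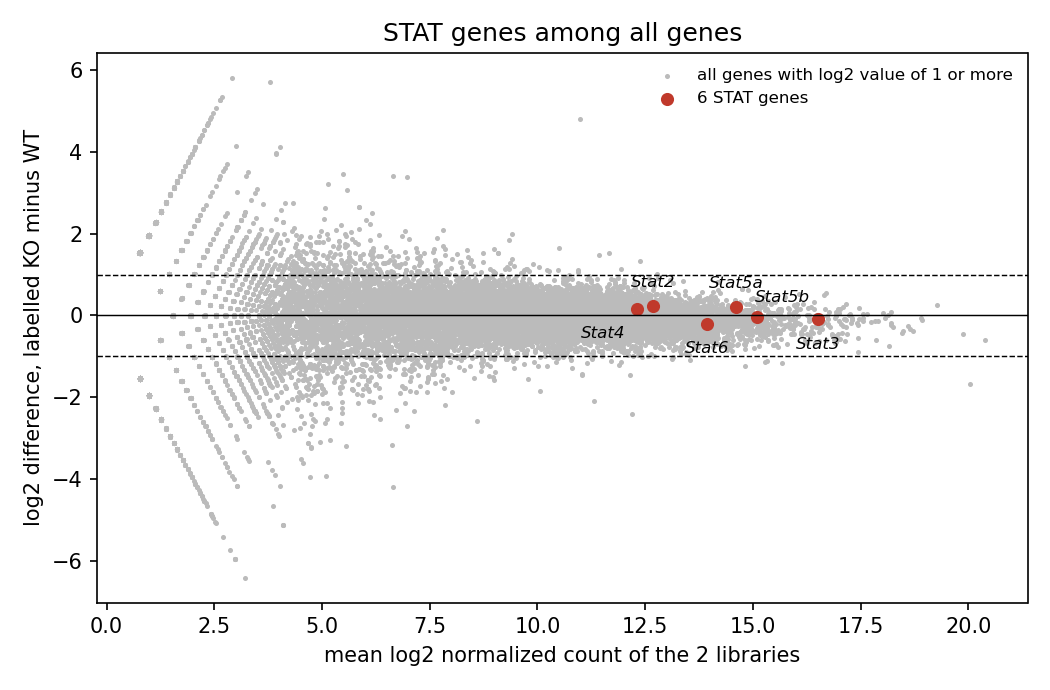
Log2 difference of the library labelled Chi3l1 KO minus WT (vertical axis) against the mean log2 normalized count of the 2 libraries (horizontal axis), for the 15541 genes listed at a log2 of 1 or more in at least 1 library (grey) and the 6 STAT genes (red). Dashed lines mark 2-fold. The STAT genes lie among the well expressed genes and inside both lines, from -0.21 for Stat6 to 0.24 for Stat2.

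Stat2, Stat4 and Stat5a had higher values in the library labelled Chi3l1 KO. Stat2 had a deposited log2 value of 12.56 in WT and 12.80 in the other library, from 6250 and 7396 reads. Its log2 difference was 0.24 (exact binomial 95% interval 0.19 to 0.29), or 18.1% more. It was the largest of the 6 as deposited, while Stat5a exceeded it under quantile normalization and with the GC trend subtracted, and 48.9% of the 8886 well expressed genes differed as much in either direction.

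Stat5a was 14.51 and 14.71, from 24067 and 27835 reads, a log2 difference of 0.21 (interval 0.18 to 0.23). Stat4 was 12.22 and 12.39, from 4934 and 5543 reads, a log2 difference of 0.17 (interval 0.11 to 0.22), and 63.8% of the well expressed genes differed as much. For Stat5a the share that differed as much was 55.1%. The counting intervals of Stat2, Stat4 and Stat5a lie above 0, and differences of their size were common among well expressed genes.

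Stat6 had the lowest difference. It was 14.04 in WT and 13.83 in the library labelled Chi3l1 KO, from 17460 and 15072 reads, a log2 difference of -0.21 (interval -0.25 to -0.18), or 13.8% less, and 53.6% of the well expressed genes differed as much. Its neighbour Nab2, whose end overlaps that of Stat6, was 14.14 and 13.49. The part of the overlap in the Stat6 value was not tested.

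Stat3 and Stat5b were nearly level. Stat3 was 16.56 and 16.46, from 99942 and 93692 reads, a log2 difference of -0.10 (interval -0.11 to -0.08). Stat5b was 15.11 and 15.09, from 36656 and 36047 reads, a log2 difference of -0.03 (interval -0.05 to -0.01), and 93.9% of the well expressed genes differed as much. The summed reads of Stat5a and Stat5b were 60723 and 63882, a log2 difference of 0.07 from normalized counts, and a read counted on both genes enters this sum more than once.

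The direction of Stat3 and Stat5b depended on how the libraries were scaled. The deposited values left the library totals unequal. Scaling to the total without Rn45s, the ribosomal RNA precursor that held 2003116 of the WT reads and 631161 of the others, raised the median well expressed gene by 0.14, and scaling to Actb, the β-actin gene, raised it by 0.12. Under both, Stat3 was at 0.05 and 0.02 and Stat5b at 0.11 and 0.09. Stat2, Stat4 and Stat5a stayed above 0 and Stat6 below 0 in the deposited values and under all 8 alternatives, each applied alone. Median-ratio scaling and the 2 pseudocounts hardly move genes with this many reads, so they could not change these directions. No scaling was combined with removal of the GC trend. Stat6 was at -0.074 when scaled without Rn45s, and the genes of its GC bin had a median of -0.101.

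**Figure D3:**
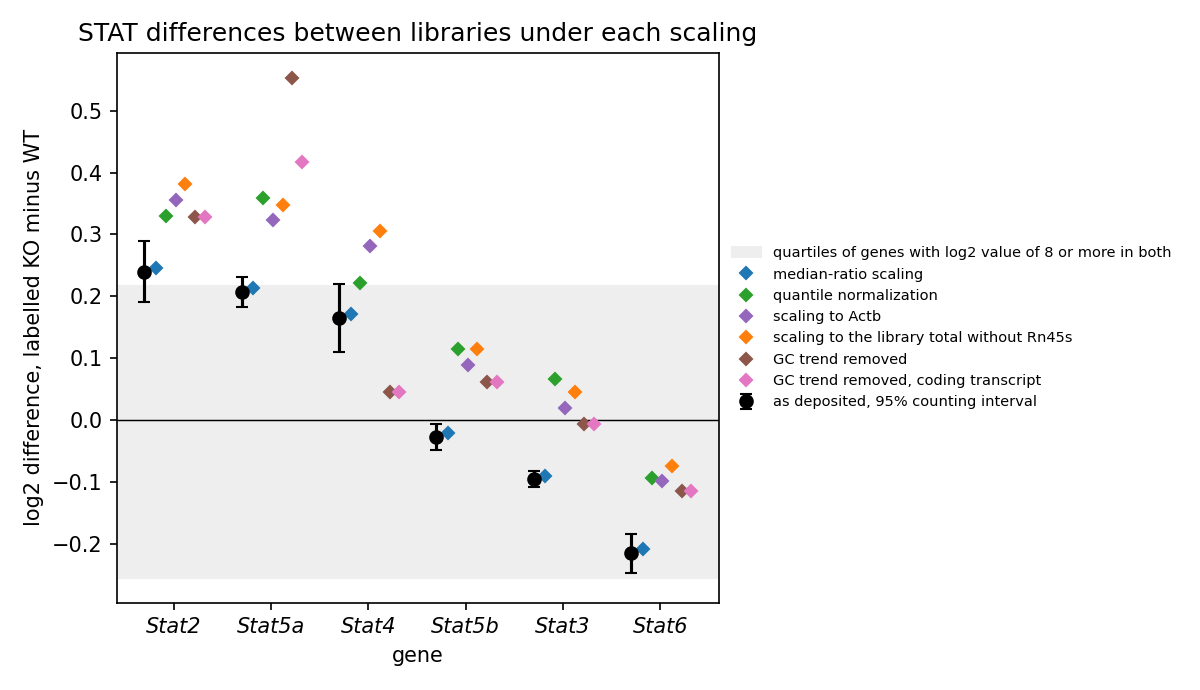
Log2 difference of the library labelled Chi3l1 KO minus WT for each STAT gene, as deposited (black, with the exact binomial 95% counting interval) and under 6 other scalings or corrections (coloured diamonds). The grey band runs from the lower to the upper quartile of the 8886 well expressed genes, -0.255 to 0.216. Stat3 and Stat5b lie above 0 under some of them, and the other 4 genes keep their side of 0.

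Differences also followed the GC content of the transcripts. Across 20 bins of GC content, the median log2 difference of well expressed genes ran from 0.23 in the lowest bin to -0.45 in the highest. The longest Stat4 transcript has 45.4% GC, and the genes of its bin had a median of 0.12, which left Stat4 at 0.05 once subtracted. Stat5a, at 57.9% GC, moved the other way, from 0.21 to 0.55, and to 0.42 when the GC content of its longest coding transcript, 55.8%, was used in place of that of a longer annotated transcript that is not coding.

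The balance within the family was also compared inside each library, where no scaling between libraries enters, although the trend with GC content still does. Of the 15 pairs of STAT genes, the log2 ratio of reads per kb changed by 0.03 to 0.46 as deposited. The ratio of Stat4, the IL-12 factor, to Stat6, the IL-4 factor, was 0.36 in WT and 0.47 in the library labelled Chi3l1 KO, a change of 0.38 on the log2 scale, and of 0.16 once the GC trend was subtracted. Stat2 to Stat6 went from 0.31 to 0.42, a change of 0.46, and of 0.44 with the trend subtracted. Stat5a to Stat6 went from 1.31 to 1.76, a change of 0.42, which the subtraction made 0.67, or 0.53 with the GC content of the coding transcript. Stat2 to Stat5a went from 0.23 to 0.24, a change of 0.03 that became -0.22, or -0.09 with the coding transcript. The order of the pairs by size of change therefore depends on the GC trend. The ratio of Stat5a to Stat5b went from 0.865 to 1.02, and both values may hold shared reads. These ratios have no replicate check.

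Genes around the STATs are described by lists, and their counts are to be read against the shares of other genes. Of all 15541 genes, 13.4% were past 1.5-fold higher and 16.2% past 1.5-fold lower. Of the 8886 well expressed genes, the shares were 3.95% and 6.29%. Well expressed genes make up most of each list but those of the STAT6 and STAT2 targets. The JAKs, which switch STAT proteins on, were all well expressed. Of 4 genes none passed 1.5-fold, with a median of -0.08 that turned to 0.04 when scaled to Actb. The largest difference and the highest level per kb were those of Jak3, the kinase of the common γ chain that serves STAT5. It was 16.11 in WT and 15.66 in the library labelled Chi3l1 KO, a log2 difference of -0.45, and 0.004 once the GC trend was subtracted. Jak1 was 13.48 and 13.49, and Jak2, which pairs with TYK2 at the IL-12 receptor, was 13.55 and 13.61.

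Of 20 receptor chains above the STATs, 1 was past 1.5-fold higher and 2 were past 1.5-fold lower, with 10 above and 10 below 0. Those for IL-2 differed among themselves. Il2ra, the α chain, was 15.83 and 16.07 (log2 difference 0.25), while Il2rb was 16.60 and 15.93 (-0.67) and Il2rg, the common γ chain, was 15.69 and 15.25 (-0.44). Il12rb2, the signalling chain above STAT4, was 13.90 and 14.35 (0.45), and its partner Il12rb1 was 12.32 and 11.96 (-0.37). With the GC trend subtracted these were 0.37 and -0.02, and Il2rb was at -0.53, no longer past 1.5-fold. Il4ra, the chain above STAT6, was 13.46 and 12.92 (-0.54). The second chain past 1.5-fold lower was Ifngr2, a chain of the IFNγ receptor, at 10.19 and 9.35 (-0.85). The chain past 1.5-fold higher was Il23r, from 5 and 14 reads, with a counting interval that includes 0. The median of the list was 0.05, and -0.05 over its 18 well expressed genes.

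Of 16 inhibitors of STAT signalling, 2 were past 1.5-fold higher and 1 past 1.5-fold lower. Socs1, which blocks JAKs, was 14.94 and 14.08 (-0.87). Ptpn2, a phosphatase that removes the phosphate from nuclear STAT proteins, was 12.13 and 12.77 (0.65), and Socs4 was 7.12 and 7.84 (0.72). With the GC trend subtracted none of these 3 was past 1.5-fold, with Socs1 at -0.52, Ptpn2 at 0.42 and Socs4 at 0.49. The median of the inhibitors was 0.02, with 8 genes above and 8 below 0. Of 6 partners and cofactors none passed 1.5-fold. Irf9, which binds DNA with STAT2 and was the highest of them per kb, was 13.04 and 13.15 (0.11). Nmi, a protein that binds STATs, had the highest difference as deposited (7.83 and 8.32, 0.49), from 234 and 329 reads. Ncoa1, a nuclear coactivator gene, had the lowest (10.43 and 10.17, -0.26). Crebbp and Ep300, acetyltransferases that STATs recruit, were both at -0.22. With the GC trend subtracted Nmi was at 0.35, and Ndufa13, also of this list, went from 0.07 to 0.52, the highest.

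Known target genes were grouped by the STAT they are best known for. The lists share genes with each other and with the lists above (Cish, Socs2, Socs3, Il2ra, Il4ra, Il12rb2, Lta and Maf). Of 10 STAT2 targets of the type I interferon response, 9 were higher in the library labelled Chi3l1 KO and 5 were past 1.5-fold higher, none past 1.5-fold lower, against 13.4% and 16.2% of all genes. The counting interval lay above 0 for 6 of the 10, and 4 were past 1.5-fold higher with the GC trend subtracted. Their median of 0.64 stayed between 0.51 and 0.76 under the alternatives. Most were low, with fewer than 250 reads in both libraries for 8 of the 10. The shares over all genes include the well expressed genes, of which 3.95% and 6.29% passed 1.5-fold. Genes below that level passed it more often than the shares over all genes. Usp18, which removes ISG15 from proteins and dampens the interferon receptor, was the highest per kb in both libraries. It was 10.17 and 11.11, from 1189 and 2295 reads, a log2 difference of 0.94 (interval 0.844 to 1.048). Ifit1 had 131 and 215 reads, Oasl2 68 and 147, and Ifi44, which had the highest difference, 8 and 30. Oas1a, an antiviral synthetase gene, was the lone gene below 0, with 56 and 54. Irf7, a transcription factor of the interferon loop, was at 10.91 and 11.18 (0.27). The list's counts include 2 well expressed genes, Usp18 and Irf7.

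Of 10 STAT4 targets, 2 were past 1.5-fold higher, none past 1.5-fold lower, and the median was 0.15. These 2 were Ifng, the Th1 cytokine gene, at 11.72 and 13.04 (1.32), and Il18r1, an IL-18 receptor chain, at 10.24 and 10.87 (0.62). With the GC trend subtracted Ifng was at 1.13 and Il18r1 at 0.43, inside 1.5-fold, while Gadd45g, a stress-response gene, went from 0.27 to 0.72. Gadd45g rested on 202 and 244 reads, and its counting interval as deposited, -0.005 to 0.546, includes 0. Furin, a protease that IL-12 induces, was the highest of the list per kb, with 125890 and 133793 reads (0.09). Tbx21, which encodes T-bet, was at -0.27, and at 0.08 once the GC trend was subtracted.

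Of 10 STAT5 targets, 1 was past 1.5-fold lower and none past 1.5-fold higher, with 6 below and 4 above 0. The median was -0.15, and 0.01 once the GC trend was subtracted. Il2ra, given above, had the highest difference of this list. Ccnd3, the cyclin D3 gene, was the one past 1.5-fold, at 17.46 and 16.82 (-0.64), and with the GC trend subtracted it was at -0.38, inside 1.5-fold. Cish, the feedback inhibitor that IL-2 induces through STAT5, was 14.30 and 13.85 (-0.45), and Bcl2, a survival gene, was 13.79 and 13.41 (-0.37).

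Of 9 STAT3 targets, 1 was past 1.5-fold lower and none past 1.5-fold higher, with 6 above and 3 below 0 and a median of 0.18. Maf, the c-MAF transcription factor gene, had the highest difference, from 85 and 128 reads (0.58). Junb, an AP-1 subunit gene, was 14.07 and 13.37 (-0.70), and with the GC trend subtracted it was at -0.25, inside 1.5-fold, while Batf, an AP-1 family gene, went from 0.34 to 0.60, past it. Bcl3, a partner of NF-κB and the highest of the list per kb in both libraries, was 14.22 and 13.88 (-0.33). Socs3, the feedback inhibitor of STAT3, was 12.71 and 12.66 (-0.045). With the GC trend subtracted both were above 0, Bcl3 at 0.119 and Socs3 at 0.301.

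Of 10 STAT6 targets, 4 were past 1.5-fold higher and 1 past 1.5-fold lower, against 13.4% and 16.2% of all genes. Low genes, such as Il4, Il5 and Il24 of this list, passed 1.5-fold more often than these shares. The median of the list was 0.48 and became -0.06 over its 5 well expressed genes. The 4 were Il4, Il5, Il24 and Ccr8. The Th2 cytokine genes were nearly absent, with 1 and 9 reads for Il4, 0 and 3 for Il5, and 33 and 43 for Il13. Il5 had at most 3 reads in both libraries, and its counting interval includes 0. With its difference set to 0, and no other gene changed, the list's median was 0.332. Il4 rests on 1 WT read, with a counting interval of 0.316 to 8.62. Gata3, the main Th2 transcription factor gene, was 11.82 and 11.18 (-0.64). Il24, a cytokine gene of the IL-10 family, had 65 and 167 reads, and Ccr8, a chemokine receptor gene, was 9.14 and 9.85 (0.71). Xbp1, a transcription factor gene of secretory cells, was the highest of the list per kb, at 13.53 and 13.82 (0.29).

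**Figure D4:**
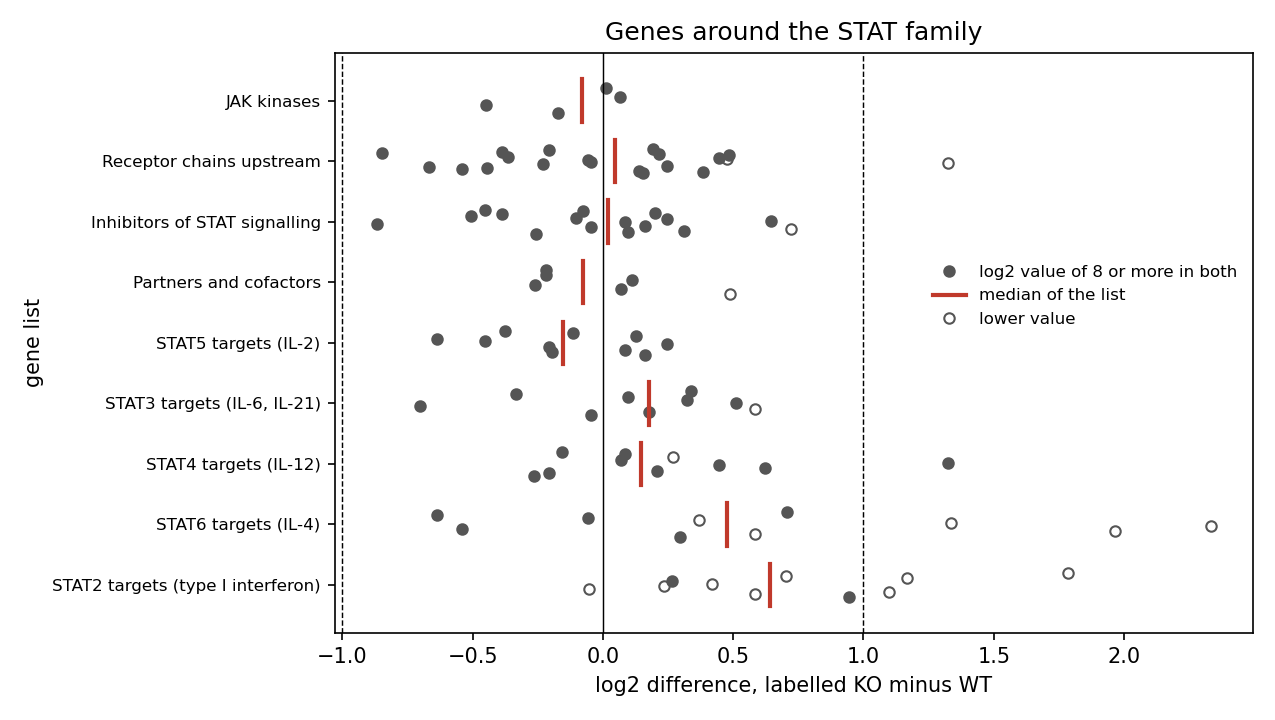
Log2 difference of the library labelled Chi3l1 KO minus WT (horizontal axis) for each gene of 9 lists around the STAT family (rows). Filled points are well expressed genes (log2 of 8 or more in both libraries), open points are lower genes, red bars are list medians and dashed lines mark 2-fold. The STAT2 targets have the highest median (0.64) and are mostly open points, and the STAT5 targets have the lowest (-0.15).

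Genes of other cell types were present at low levels, and some of them moved with these differences. All 5 B cell markers were higher in the library labelled Chi3l1 KO, with 971 and 1793 reads in sum and none at 0. The 5 neutrophil markers in the tables had 60 and 5 reads in sum, with Camp at 0 in both. The 6 monocyte or macrophage markers had 546 and 478, with 2 higher, 3 lower and Adgre1 at 0 in both. Among them, Csf1r had 97 and 175 reads and Lyz2 34 and 2. Dendritic cell markers had 62 and 78 reads in sum (2 higher, 1 lower) and NK cell markers 28 and 54 (2 higher, 1 lower). The 2 CD8 T cell markers had 840 and 835 (1 higher, 1 lower). By comparison the 7 T cell markers had 207653 and 190084 reads (1 higher, 6 lower). STAT genes are expressed in most cell types, and the part of other cells in the differences of the STAT genes and of the interferon targets was not tested. In a bulk sample, fewer cells of a type and less RNA per cell cannot be told apart.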

How the data were processed

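Th1 cells of each genotype gave 1 library. Per the labels and the study's methods, poly(A) RNA was made into libraries with the SENSE mRNA-Seq kit and sequenced from both ends. The authors mapped reads with TopHat and called differential expression with edgeR, on counts that took in unique and multiple alignments. The study's methods also name Cufflinks for abundances and FPKM for expression levels. The submitters' processing notes name mm10, and the annotation used is not given in the sources used here. The authors deposited 1 value per gene symbol, read here as log2 of a count after a global normalization, plus 1. This unit was inferred: at the step of 0.967 (WT) and 0.966 (labelled KO), 99.97% and 99.96% of low values came within 0.1 of a whole read.

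Differences are deposited values of the library labelled KO minus WT. Intervals (95%) are exact binomial for ratios and exact Poisson for levels, and take reads as independent. Lengths, GC content, positions and sequences are those of the GENCODE M21 annotation on GRCm38, where 96.0% of counted genes had a transcript. The trend with GC content was the median of 20 bins over 8579 genes. The members and lists were chosen with earlier results of these data known. Genes named from each list were the largest rise, the largest fall and the highest level per kb in the WT library, and further ones were chosen after their values were seen. Alternatives were other scalings, pseudocounts, thresholds, lengths and removal of the GC trend. A further gene under the rule and 1 gene of the lists are not reported here. The worth of 1 read, the rebuilt reads, the differences and their intervals were tested on simulated reads, with changes set in genes with many reads. The GC trend, the scalings, the levels per kb, the shared windows and the intervals of low genes were not tested in this way. Intervals were computed with scipy 1.17.1 under Python 3.11.15, tables with pandas 2.3.3 and numpy 2.4.6, and plots with matplotlib 3.10.9.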

Additional observations from a re-analysis of the deposited data

How the results depend on the processing

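No paired analysis was possible because each genotype has 1 library, and no library could be left out. Median-ratio scaling and the 2 other pseudocounts (0.1 and none) moved no STAT gene beyond its counting interval. Quantile normalization gave log2 differences of 0.33 for Stat2, 0.067 for Stat3, 0.22 for Stat4, 0.36 for Stat5a, 0.11 for Stat5b and -0.094 for Stat6. Scaling to Actb gave 0.36, 0.020, 0.28, 0.32, 0.089 and -0.099 in the same order, scaling to the total without Rn45s gave 0.38, 0.045, 0.31, 0.35, 0.11 and -0.074, and removing the trend with GC content gave 0.33, -0.007, 0.045, 0.55, 0.062 and -0.114. With the GC content of the coding transcript, an alternative chosen after seeing the data, Stat5a was at 0.42 and the other 5 were as before (0.33, -0.007, 0.045, 0.062 and -0.114). Against the order per kb of the longest transcript, 4 of 6 genes kept their rank per kb of all exons in each library, and per kb of coding sequence 4 did in WT and 2 in the library labelled KO. Genes past the fold numbered 1147 higher and 1418 lower at 2-fold, 2088 and 2512 at 1.5-fold, 573 and 733 at 3-fold, and 41 and 66 at 2-fold among well expressed genes. List medians left the span of their genes' median counting bounds with the GC trend subtracted for JAKs (-0.0305), STAT5 targets (0.0105) and STAT4 targets (0.331). When scaled to Actb they did for JAKs (0.036), receptor chains (0.16), inhibitors (0.13), partners (0.041) and STAT5 targets (-0.038), and under quantile normalization for JAKs (-0.0019) and STAT5 targets (-0.052). Over well expressed genes they did for partners (-0.218) and STAT6 targets (-0.059). The cause of these shifts was not tested.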

Other observations

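Genes of other helper T cell programs, from the marker lists, stood beside the STAT genes in the same libraries. Foxp3, the defining gene of regulatory T cells, had a log2 value of 10.94 in WT and 11.66 in the library labelled Chi3l1 KO, and Ikzf2, the Helios gene, 7.35 and 8.26. The Th17 markers Il17f and Il23r rested on few reads, with 3 and 13 reads for Il17f, and Il17a was listed at 0 in both. Of the 6 Th1 markers, 4 were higher and 2 lower. Cxcr3, a chemokine receptor of Th1 cells, was 8.05 and 6.82, the opposite direction to Ifng. These are single libraries, and no value has a replicate check.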
